A study of Homo sapiens with 2 samples.

Results

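The genes described here are 9 genes of the transforming growth factor beta (TGF-beta) pathway and its matrix targets, taken from the 16424 genes with deposited values by their symbols. They are the ligand TGFB1, the receptors TGFBR1 and TGFBR2, the signal transducers SMAD2, SMAD3 and SMAD4, the inhibitor SMAD7 and the matrix genes FN1 and TGFBI. All 9 were found, each once. They were chosen with earlier results of these data known, so comparing them with all other genes is not an independent check. Expression was measured by cap analysis of gene expression (CAGE), which sequences a short tag from the capped 5′ end of each RNA, in PLC/PRF/5, an established human hepatoma cell line. The study has 1 non-treated library (0 µg/ml) and 1 M2BPGi-treated library, whose cells received 3 µg/ml M2BPGi in the medium. Cells of both were collected after 6 h. M2BPGi is a glycosylated form of Mac-2 binding protein that is used as a serum marker of liver fibrosis.

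TGF-beta is secreted bound to a latency protein, and once released it brings a type II receptor, encoded by TGFBR2, together with a type I receptor, encoded by TGFBR1. The type I receptor phosphorylates SMAD2 and SMAD3, which enter the nucleus with SMAD4 and act on target genes, among them SMAD7, whose product switches the receptors off again. In liver the pathway is best known for driving the deposition of extracellular matrix by stellate cells during fibrosis, and in hepatocytes for slowing growth and promoting cell death.

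Tag numbers were inferred from the steps of the deposited values, which gave totals of 24040209 tags (non-treated) and 24862941 tags (M2BPGi-treated), with 22630317 and 23471991 on the listed genes. All intervals rest on these inferred numbers. Values are in CPM, the tags of a gene scaled to a common library size. Each RNA gives a single 5′ end, so CPM does not scale with transcript length and levels of different genes were compared in CPM directly. One tag was worth 0.0416 CPM in the non-treated and 0.0402 CPM in the M2BPGi-treated library. A count of 0 tags was taken to allow up to 3 tags, a 1-sided 95% bound, which is 0.125 and 0.121 CPM. A log2 ratio is the log2 of M2BPGi-treated CPM plus 1 over non-treated CPM plus 1, which understates the difference of genes at low levels. The interval beside it is the 95% Clopper-Pearson interval of the log2 ratio of the tags, with nothing added. Intervals cover counting error only. With 1 library per condition no difference has a replicate check, and none was tested. The cells were measured in bulk, so fewer cells of a type and less RNA per cell cannot be told apart.

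Among the 9 genes, FN1 and TGFBR1 had the lowest ratios of M2BPGi-treated to non-treated cells, and SMAD2 was the one gene that was higher in the M2BPGi-treated library. The 8 genes other than SMAD7 had a mean of at least 1 CPM, the minimum for computing a ratio, as did 13724 genes in all. Of these 8 genes, 0 were at least 1.5-fold higher, against 1.6% of all genes tested, and 0 were at least 1.5-fold lower, against 4.04% of all genes tested. These counts are of ratios with 1 CPM added, and TGFBR1 was just past 1.5-fold lower with nothing added. The counting interval lay below 0 for 5 of the 8 (31.5% of all genes tested) and above 0 for 0 of them (22.8%). Of the 8, 7 had a ratio below 0, beside 57.0% of all genes tested. Their median log2 ratio was -0.21, and the median of all genes tested was -0.05.

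**Figure D1:**
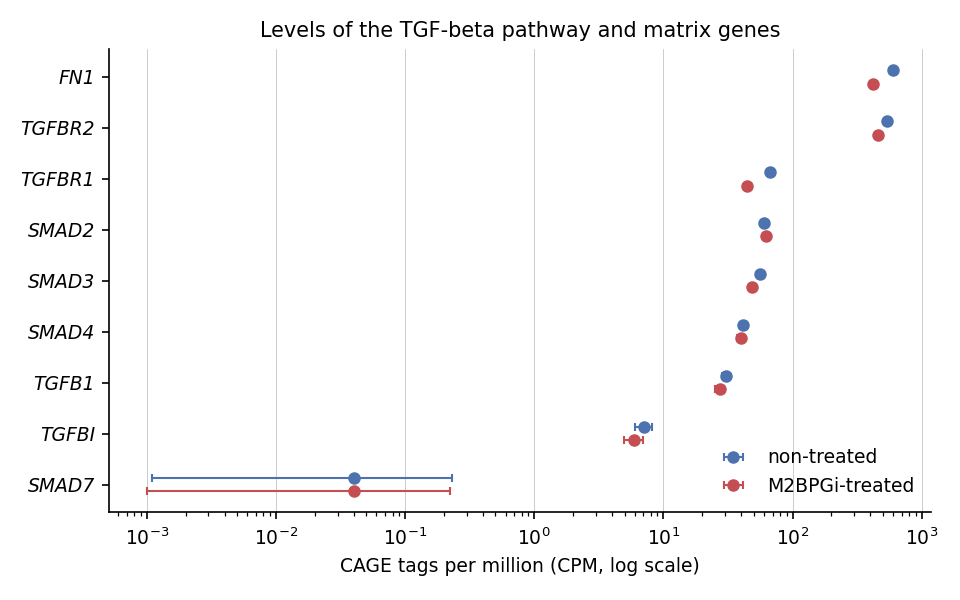
Level of each of the 9 genes in CPM on a log axis in the non-treated library (blue) and the M2BPGi-treated library (red), with exact 95% Poisson intervals that cover counting error only. FN1 and TGFBR2 lie at 419.9 CPM or more in both libraries, 6 genes lie between 5.87 and 67.1 CPM, and SMAD7 has 1 tag in each library.

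The levels spanned 4 orders of magnitude, and FN1 and TGFBR2 together held 81.3% of the summed CPM of the 9 genes in non-treated and 79.4% in M2BPGi-treated cells. The sum was 1400.65 CPM without and 1106.42 CPM with M2BPGi. In the non-treated library the order from high to low was FN1, TGFBR2, TGFBR1, SMAD2, SMAD3, SMAD4, TGFB1, TGFBI and SMAD7. In the M2BPGi-treated library TGFBR2 stood above FN1, and SMAD2 and SMAD3 stood above TGFBR1. In that library the Poisson interval of TGFBR1 (42.0 to 47.3 CPM) overlapped those of its neighbours SMAD3 (45.9 to 51.4 CPM) and SMAD4 (37.4 to 42.4 CPM), and no other neighbours among the 9 overlapped. In the non-treated library SMAD2 (57.1 to 63.3 CPM) and SMAD3 (52.6 to 58.6 CPM) overlapped, and no other neighbours did.

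The ligand gene TGFB1 (ENSG00000105329, chromosome 19) encodes TGF-beta 1, the isoform most studied in fibrosis. It had 30.49 CPM in non-treated cells from 733 tags and 27.27 CPM in M2BPGi-treated cells from 678 tags. The log2 ratio was -0.16 (-0.31 to -0.01), so the interval ended just below 0. After either rescaling or the length adjustment described further on it included 0, which left 4 genes in place of 5 with an interval below 0. Of all genes tested, 36.4% had a ratio at or below it.

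The receptor genes were lower in the M2BPGi-treated library, TGFBR1 by more than TGFBR2. TGFBR1 (ENSG00000106799, chromosome 9) encodes the type I receptor kinase that phosphorylates SMAD2 and SMAD3. It had 67.1 CPM from 1613 tags in non-treated and 44.6 CPM from 1109 tags in M2BPGi-treated cells, a log2 ratio of -0.58 (-0.70 to -0.48). This is just short of the 1.5-fold threshold, which is 0.585 on the log2 scale. With nothing added, the log2 ratio of the tags was -0.589, just past the threshold. The count of genes past it was 1 with a pseudocount of 0.1 CPM. The ratio with 1 CPM added was the lowest of the 8, and 4.15% of all genes tested had one at or below it. TGFBR2 (ENSG00000163513, chromosome 3) encodes the type II receptor, which binds the ligand first. It had 540.43 CPM from 12992 tags and 458.31 CPM from 11395 tags, a log2 ratio of -0.24 (-0.27 to -0.20), with 26.9% of all genes tested at or below it. TGFBR2 ranked 245 among the 16424 genes by CPM in the non-treated and 320 in the M2BPGi-treated library. Per CPM of TGFBR1 there were 8.05 CPM of TGFBR2 (7.65 to 8.49) in non-treated and 10.3 CPM (9.66 to 10.9) in M2BPGi-treated cells, so that the ratio of type II to type I receptor RNA was larger in the treated library.

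Among the signal transducers, SMAD3 was lower in the M2BPGi-treated library beyond counting error, and SMAD2 and SMAD4 were within it. SMAD2 (ENSG00000175387, chromosome 18) and SMAD3 (ENSG00000166949, chromosome 15) encode the receptor-regulated SMADs of this pathway. SMAD2 had 60.15 CPM from 1446 tags and 61.98 CPM from 1541 tags, a log2 ratio of 0.04 (-0.06 to 0.15). SMAD3 had 55.57 CPM from 1336 tags and 48.63 CPM from 1209 tags, a log2 ratio of -0.19 (-0.31 to -0.08). The pair stood close to 1 to 1 in non-treated cells, with 1.08 CPM of SMAD2 per CPM of SMAD3 (1.0 to 1.17), and at 1.27 (1.18 to 1.38) in M2BPGi-treated cells. SMAD4 (ENSG00000141646, chromosome 18) encodes the partner that SMAD2 and SMAD3 share. It had 41.51 CPM from 998 tags and 39.82 CPM from 990 tags, a log2 ratio of -0.06 (-0.19 to 0.07). SMAD4 shares 454 nt of transcript sequence with the overlapping gene AC091551.1, listed at 1.83 and 1.81 CPM, so tags of SMAD4 may have been assigned to either, and its level is uncertain. The sum of SMAD2 and SMAD3 per CPM of SMAD4 was 2.79 (2.59 to 3.0) in non-treated and 2.78 (2.58 to 2.99) in M2BPGi-treated cells, which is the same within counting error.

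SMAD7 (ENSG00000101665, chromosome 18) encodes the inhibitory SMAD that competes for the type I receptor and recruits ubiquitin ligases to it, and it is itself a target of TGF-beta signalling. It was listed at 0.04 CPM in both libraries, 1 tag in each. A count of 1 tag allows up to 0.232 CPM without and 0.224 CPM with M2BPGi, so no ratio was computed and a difference was not detectable at this depth. The other inhibitory SMAD gene, SMAD6, chosen after its values were seen, had 78.04 and 73.56 CPM, and its interval ran from -0.18 to 0.01.

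Of the matrix genes, FN1 (ENSG00000115414, chromosome 2) encodes fibronectin, a glycoprotein that hepatocytes secrete into plasma and other cells assemble into fibrils. It had 598.29 CPM from 14383 tags in non-treated and 419.9 CPM from 10440 tags in M2BPGi-treated cells, a log2 ratio of -0.51 (-0.55 to -0.47). Of all genes tested, 6.4% had a ratio at or below this. FN1 ranked 217 by CPM in the non-treated and 360 in the M2BPGi-treated library, and its difference of -178.39 CPM was the largest in CPM among the 9 genes. TGFBI (ENSG00000120708, chromosome 5) encodes a matrix protein that binds collagens and integrins and was named for its induction by TGF-beta. It had 7.07 CPM from 170 tags and 5.87 CPM from 146 tags, a log2 ratio of -0.23 (-0.60 to 0.06). The interval is wide because the tags are few, and it includes 0.

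**Figure D2:**
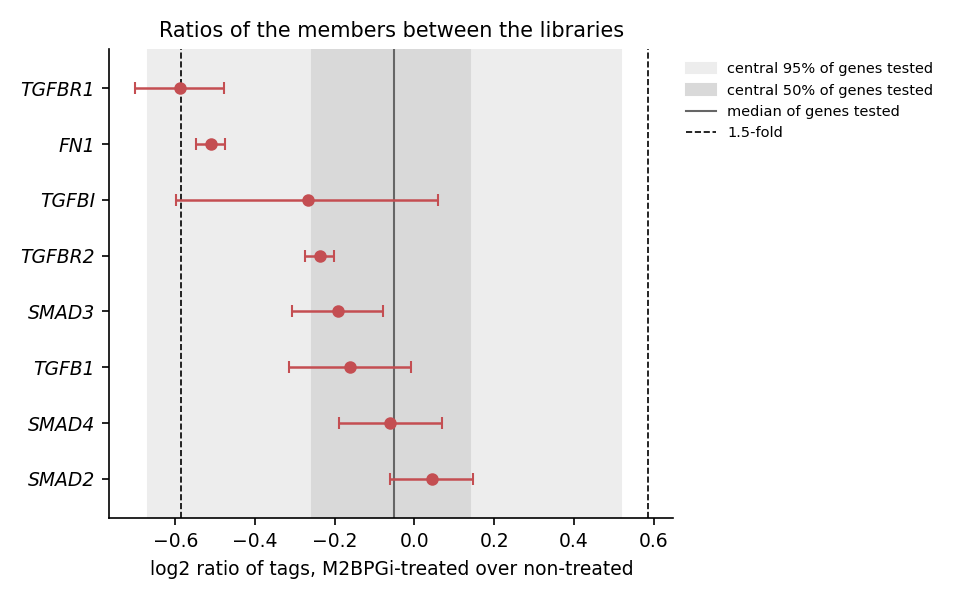
Log2 ratio of the tags of 8 genes, M2BPGi-treated over non-treated, with 95% Clopper-Pearson intervals that cover counting error only. The grey bands hold the central 95% (-0.67 to 0.52) and the central 50% (-0.26 to 0.14) of the log2 ratios of all genes tested, the grey line is their median and dashed lines mark 1.5-fold. The bands are of ratios with 1 CPM added and the points of tags with nothing added. TGFBR1 lies at -0.59, just past the dashed line, and FN1 at -0.51, and the intervals of SMAD2, SMAD4 and TGFBI include 0.

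The starts of 4 of these genes are shown because CAGE tags mark where transcription begins: the genes with the lowest ratios (FN1 and TGFBR1), the one that was higher (SMAD2) and the one with 1 tag per library (SMAD7). Each sequence is the RefSeq window from 250 bases before to 50 bases after the first listed start on the GRCh38.p14 build, 5′ to 3′ on the strand of the gene. The windows are chr2:215436019-215436318 (minus strand) for FN1, chr9:99104863-99105162 (plus strand) for TGFBR1, chr18:47930823-47931122 (minus strand) for SMAD2 and chr18:48950916-48951215 (minus strand) for SMAD7. Capitals mark the SMAD-binding element CAGAC, the cAMP response element TGACGTCA, the TATA box TATAA and the CCAAT box CCAAT, on either strand.
FN1: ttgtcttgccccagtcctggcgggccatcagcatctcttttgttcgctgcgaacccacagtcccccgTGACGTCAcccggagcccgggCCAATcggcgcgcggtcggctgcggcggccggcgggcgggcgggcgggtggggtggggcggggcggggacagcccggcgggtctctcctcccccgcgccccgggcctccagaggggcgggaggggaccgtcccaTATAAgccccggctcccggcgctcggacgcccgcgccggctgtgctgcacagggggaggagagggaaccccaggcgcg
TGFBR1: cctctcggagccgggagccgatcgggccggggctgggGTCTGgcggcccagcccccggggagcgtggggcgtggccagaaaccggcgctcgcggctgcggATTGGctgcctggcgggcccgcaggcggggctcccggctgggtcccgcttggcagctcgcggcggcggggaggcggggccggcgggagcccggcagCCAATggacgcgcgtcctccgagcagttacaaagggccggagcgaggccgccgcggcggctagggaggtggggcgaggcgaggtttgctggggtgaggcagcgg
SMAD2: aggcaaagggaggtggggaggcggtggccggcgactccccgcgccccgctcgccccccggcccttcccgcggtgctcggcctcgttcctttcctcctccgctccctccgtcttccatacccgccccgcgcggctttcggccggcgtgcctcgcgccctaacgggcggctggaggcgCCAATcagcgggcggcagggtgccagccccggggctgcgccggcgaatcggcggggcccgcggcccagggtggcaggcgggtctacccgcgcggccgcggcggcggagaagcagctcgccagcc
SMAD7: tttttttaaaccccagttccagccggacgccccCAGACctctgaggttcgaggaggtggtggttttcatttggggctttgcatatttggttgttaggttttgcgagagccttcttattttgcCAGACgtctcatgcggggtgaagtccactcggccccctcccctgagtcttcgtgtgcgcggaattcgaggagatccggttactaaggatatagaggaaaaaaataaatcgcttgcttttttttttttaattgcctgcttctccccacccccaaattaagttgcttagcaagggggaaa
The table of starts has a window for all 9 genes, but it has 8 starts for TGFBR1, 5 for SMAD3, 3 for SMAD7 and 2 each for SMAD2 and TGFBR2, of which the first was used throughout, and the values per gene do not show which start the tags came from.

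FN1 was the one gene of the 9 with a TATAA in its window, at position -28 from the start, and the one with a TGACGTCA, at position -183. TATAA occurs in 21.1% and TGACGTCA in 1.98% of the 27305 windows of this length in the table, counting the first start of each gene and both strands. CAGAC was found in 3 of the 9 windows (TGFBR1, SMAD3 and SMAD7) and in 45.0% of all windows, so it is as common elsewhere. The palindrome GTCTAGAC and the AP-1 site TGANTCA were found in 0 of the 9 windows, and in 0.201% and 7.76% of all windows. The other listed starts of TGFBR1, TGFBR2, SMAD2, SMAD3 and SMAD7 were not searched, so motifs and base content there are not covered. The GC box GGGCGG was in 6 of the 9 windows and in 44.6% of all, with matches that overlap one another in FN1, and CCAAT was in 5 of the 9 and in 35.7% of all. A match is a run of letters, and binding was not measured here. The windows of FN1 (76.7% G and C), TGFBR1 (78.7%) and SMAD2 (78.7%) are rich in G and C beside a median of 58.3% over all windows, while those of SMAD7 (48.3%) and TGFBR2 (42.3%) are below it.

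**Figure D3:**
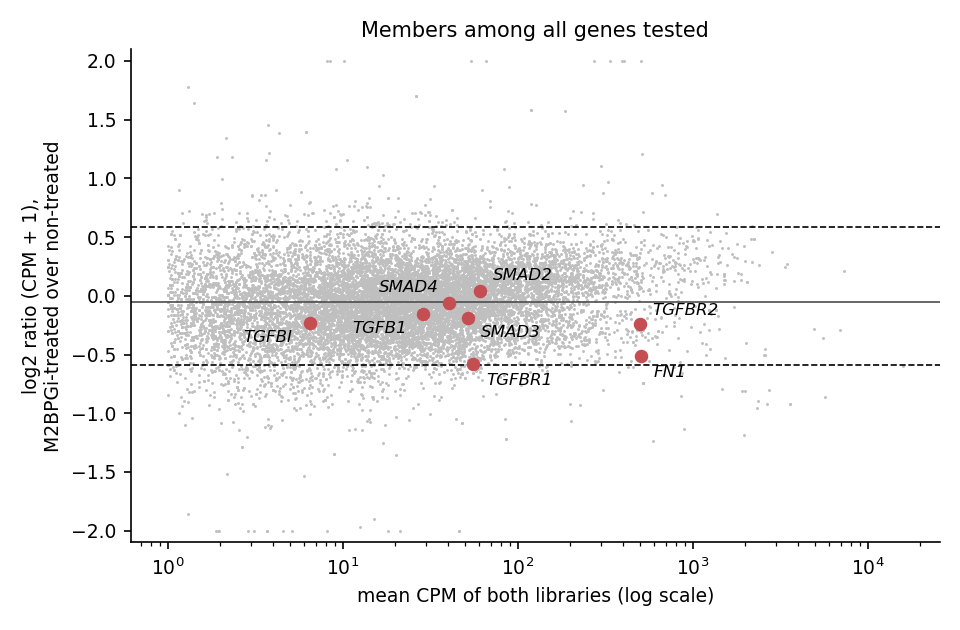
Log2 ratio against mean CPM (log axis) of all 13724 genes tested (grey) with 8 of the 9 genes in red, the median of all genes tested as a solid line and 1.5-fold as dashed lines. Ratios past 2 or -2 are drawn at the edge. TGFBR1 lies at the lower dashed line, and FN1 lies low among the genes above 100 CPM.

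Across all genes tested, 219 were higher and 555 lower in the M2BPGi-treated library by 1.5-fold or more, so that 28.3% of those past the fold were higher. With all log2 ratios shifted so that their median is 0, the numbers were 298 and 412, and 42.0% were higher. The intervals of 4 of the 8 genes then lay below 0, beside 26.0% of all genes tested. The ratio also differed with level and with transcript length. The 1924 genes with a mean of at least 100 CPM had a median log2 ratio of 0.10 and a central 95% from -0.56 to 0.55, so FN1 and TGFBR2, which belong to them, lay below the median of genes at their level. The genes between 30 and 100 CPM, which include TGFBR1, SMAD2, SMAD3 and SMAD4, had a median of -0.02. When the genes tested were put into 5 groups of about equal size by transcript length, the median log2 ratio was 0.04 in the group with the shortest transcripts and -0.13 in the group with the longest.

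TGFBR1, TGFBR2, SMAD2, SMAD4 and FN1 are in the group with the longest transcripts. Relative to the median of its length group, FN1 was at -0.38, TGFBR1 at -0.45 and TGFBR2 at -0.11. SMAD4 turned from -0.06 to 0.07, and SMAD2 was at 0.17. TGFB1, in the group next to the longest, was at -0.07, and TGFBI and SMAD3, whose transcripts are shorter, were at -0.17 and -0.20. FN1 and TGFBR1 thus had the lowest values on this scale too, SMAD2 lay above the median of its group beyond counting error, and SMAD4 lay within counting error of it. With each interval shifted in the same way, 4 of the 8 lay below 0 (25.5% of all genes with a length) and 1, that of SMAD2, above 0 (27.1%). The median of the 8 genes went from -0.21 to -0.14 on this scale. What lies behind the relation with length was not tested.

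**Figure D4:**
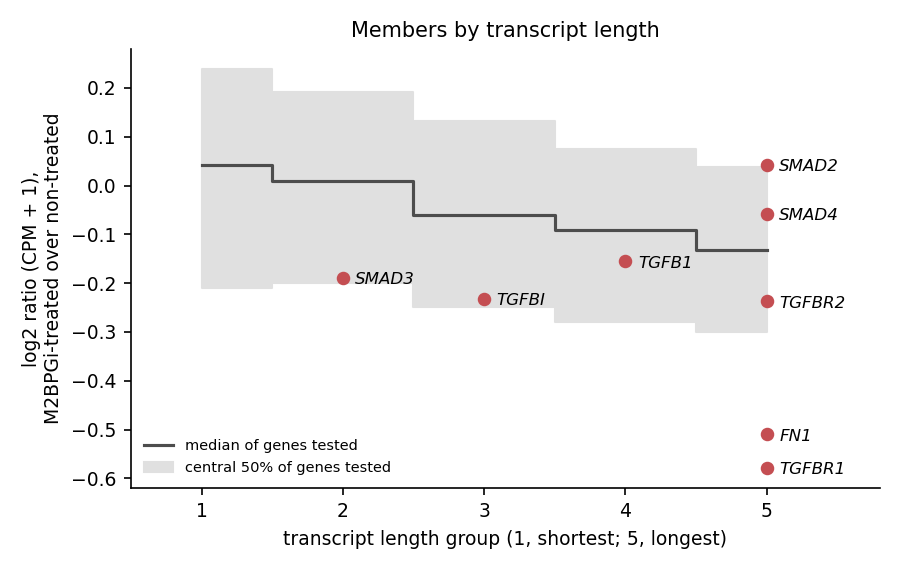
Log2 ratio of 8 of the 9 genes (red) by transcript length group from 1 (shortest) to 5 (longest), with the median (line) and the central 50% (grey) of all genes tested in each group. Of the 8 genes, 5 are in group 5, where the median is -0.13, and FN1 and TGFBR1 lie below its central 50%.

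The wider pathway was described with lists of other genes written by function. These lists were chosen with earlier results of these data known. Their shares beside those of all genes tested therefore describe the lists only and are not an independent check. Of 34 genes for ligands of the TGF-beta family and for their latency, 19 were listed and 17 tested, of which 15 were lower and 2 higher in the M2BPGi-treated library. Beside the 57.0% of all genes tested that were lower, this is a larger share. The intervals of 12 of the 17 lay below 0 (31.5% of all genes tested) and that of 1 above 0 (22.8%), and the median log2 ratio was -0.29. After the length adjustment 8 lay below 0 and 1 above, beside 25.5% and 27.1% of all genes with a length. The lowest with a mean of at least 10 CPM was ITGB5, an integrin chain that pairs with ITGAV to bind latent TGF-beta, with 329.03 and 223.95 CPM and a log2 ratio of -0.55 (-0.60 to -0.51). ITGAV itself had 43.68 and 33.5 CPM, a ratio of -0.37 (-0.52 to -0.25). FST, which encodes the activin trap follistatin, had 178.33 and 135.7 CPM, a ratio of -0.39 (-0.46 to -0.33). The highest such genes were below 0 too. They were FSTL3, a relative of FST, at -0.15 (39.27 and 35.39 CPM), the stress-induced ligand gene GDF15 at -0.18 (705.28 and 620.44 CPM) and BMP4 at -0.26 (14.1 and 11.58 CPM). INHBE, the gene of an activin subunit made in liver, was the one gene of the 17 past 1.5-fold (1.6% of all genes tested were higher and 4.04% lower by this fold) and was chosen after its values were seen. It had 1.91 CPM from 46 tags and 3.74 CPM from 93 tags, a log2 ratio of 0.70 (0.44 to 1.51).

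Other receptors and co-receptors had a median log2 ratio of -0.24. Of 14 genes 11 were listed and 9 tested, of which 8 were lower and 1 higher. The intervals of 6 of the 9 lay below 0 (31.5% of all genes tested) and of 0 above 0 (22.8%), and after the length adjustment 4 lay below 0 (25.5%), with those of BMPR1A and BMPR2 no longer among them. Past 1.5-fold there were 0 higher (1.6% of all genes tested) and 0 lower (4.04%). Among those with a mean of at least 10 CPM, the lowest were ACVR1, a type I receptor mainly for bone morphogenetic proteins (21.46 and 15.61 CPM, -0.44), the activin type II receptor gene ACVR2A (29.95 and 22.2 CPM, -0.42) and TGFBR3, which encodes the co-receptor betaglycan (57.7 and 46.09 CPM, -0.32). The highest at that level were the pseudoreceptor gene BAMBI (149.92 and 147.49 CPM, -0.02, and 0.03 after rescaling), the activin type I receptor gene ACVR1B (54.16 and 47.3 CPM, -0.19) and BMPR1A (25.33 and 21.4 CPM, -0.23). ENG and ACVRL1, co-receptor and receptor genes of endothelial cells, had 0 tags in both libraries. These and BMPR2 were chosen after their values were seen.

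SMADs and their regulators lay closer to the median of all genes. Of 33 genes 32 were listed and tested, with 22 lower, 10 higher and a median log2 ratio of -0.08. After the length adjustment the median was 0.02. On that scale 3 intervals lay below 0 (25.5% of all genes with a length) and 5 above 0 (27.1%). Either rescaling gave 3 and 5 too. As deposited, the intervals of 6 of the 32 lay below 0 and of 4 above 0, smaller shares than the 31.5% and 22.8% of all genes tested, and 0 genes were past 1.5-fold in either direction (1.6% higher and 4.04% lower). Among those with a mean of at least 10 CPM, the lowest was CTDSP1, a small phosphatase that can remove phosphate from SMAD proteins, with 83.15 and 56.67 CPM (-0.55, interval -0.65 to -0.45). ZFYVE16, an endosomal SMAD-binding protein gene, was at -0.22 (14.18 and 11.99 CPM) and SMAD5, a SMAD of the bone morphogenetic protein branch, at -0.17 (27.29 and 24.17 CPM). Both have long transcripts, and after the length adjustment they were at -0.09 and -0.04, with intervals that include 0. The highest of them was STUB1, a ubiquitin ligase that can target SMADs, with 123.46 and 167.88 CPM (0.44, interval 0.38 to 0.51), and STRAP, a protein that binds the receptors together with SMAD7, had 142.3 and 181.72 CPM (0.35, interval 0.29 to 0.42). CTDSP2, a relative of CTDSP1, had 39.1 and 44.81 CPM (0.19, interval 0.07 to 0.32).

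Genes known to respond to TGF-beta within hours lay near the median of all genes. Of 32 genes 29 were listed and 27 tested, with 17 lower, 10 higher and a median log2 ratio of -0.03. The median was 0.02 after either rescaling and 0.01 after the length adjustment. The intervals of 7 of the 27 lay below 0 and of 5 above 0, beside 31.5% and 22.8% of all genes tested. After the length adjustment 7 lay below 0 and 6 above 0, beside 25.5% and 27.1% of all genes with a length. The lowest with a mean of at least 10 CPM were GADD45B, a stress response gene (32.78 and 23.81 CPM, -0.45), CTGF, which encodes a secreted matrix-associated protein (28.2 and 24.01 CPM, -0.22), and VEGFA (138.56 and 123.4 CPM, -0.17). The highest at that level were SPHK1, which encodes a sphingosine kinase (11.02 and 13.35 CPM, 0.26), CYR61, a relative of CTGF (19.26 and 22.16 CPM, 0.19), and the heme oxygenase gene HMOX1 (74.5 and 83.06 CPM, 0.15). CTGF and CYR61, of 1 gene family, thus lay on opposite sides of 0, and the intervals of both excluded it (-0.39 to -0.07 and 0.02 to 0.38). IL11, the one gene of the 27 past 1.5-fold (4.04% of all genes tested were lower and 1.6% higher by this fold), was chosen after its values were seen and had 3.37 and 1.41 CPM (-0.86, interval -1.87 to -0.67).

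Matrix and matrix-modifying genes were mostly lower, as FN1 was. Of 79 genes 52 were listed and 41 tested, with 34 lower, 7 higher and a median log2 ratio of -0.29. Of all genes tested, 57.0% were lower. The intervals of 27 of the 41 lay below 0 (31.5% of all genes tested) and of 2 above 0 (22.8%), and after the length adjustment those of 24 and 3 (25.5% and 27.1%). Summed over the list, the level was 6612.03 CPM without and 5298.17 CPM with M2BPGi. The lowest with a mean of at least 10 CPM were enzymes that hydroxylate collagen. PLOD2, a lysyl hydroxylase, had 67.72 and 42.63 CPM (-0.66, interval -0.78 to -0.56) and was past 1.5-fold, as were 3 of the 41 genes in all, each lower (4.04% of all genes tested were lower and 1.6% higher by this fold). The prolyl hydroxylase chains P4HA1 (49.13 and 34.47 CPM) and P4HA2 (46.84 and 32.94 CPM) were both at -0.50. The highest at that level were CYR61, the protease inhibitor gene TIMP1 (165.14 and 175.52 CPM, 0.09) and SERPINH1, which encodes a collagen chaperone (42.55 and 44.48 CPM, 0.06). The other genes past 1.5-fold, chosen after their values were seen, were EFEMP2 (5.57 and 2.86 CPM, -0.77) and the laminin chain gene LAMA3 (11.65 and 6.96 CPM, -0.67). After the length adjustment PLOD2 was at -0.56 and no longer past 1.5-fold. LAMA3, in the group with the longest transcripts, was not past it on that scale either. As for the 9 genes, many of these transcripts are long, with 29 of the 41 tested in the longest 2 of the 5 length groups.

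**Figure D5:**
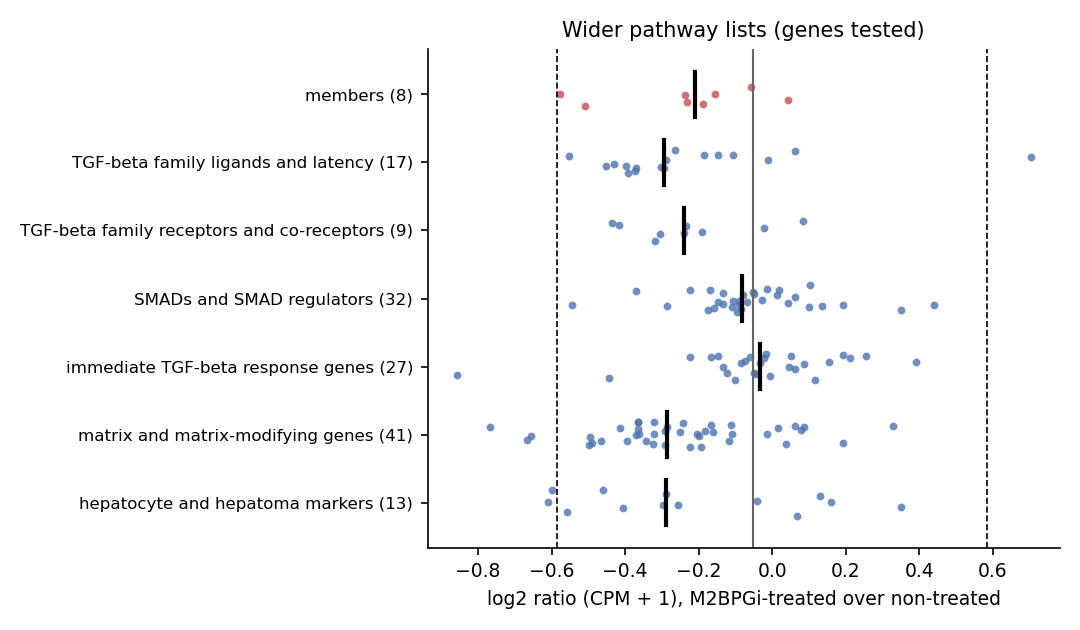
Log2 ratio (M2BPGi-treated over non-treated) of each gene tested in the 9-gene set (red), the wider lists and the hepatocyte marker list (blue), with the number of genes tested in brackets, each median as a black bar, the median of all genes tested as a grey line and 1.5-fold as dashed lines. The list medians are -0.21, -0.29, -0.24, -0.08, -0.03, -0.29 and -0.29 from top to bottom, and vertical scatter within a list has no meaning.

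The labelled cell type was checked with marker genes. All 13 hepatocyte and hepatoma markers were listed and tested, with a sum of 4549.7 CPM without and 4181.25 CPM with M2BPGi, 9 lower, 4 higher and a median log2 ratio of -0.29. KRT18 was the most abundant, with 1249.78 and 1592.01 CPM (0.35), but it has near-identical copies elsewhere and overlaps KRT8 in sequence, so its tags are uncertain. The tags of KRT8 are uncertain too, since it has 8 copies elsewhere, among them KRT8P3, listed at 43.34 and 40.1 CPM. AFP, the fetal albumin that hepatomas often make, had 695.38 and 565.62 CPM. KRT8 (834.93 and 811.45 CPM) and SERPINA1 (670.75 and 455.18 CPM) make up most of the rest of the sum with FGB, and the keratins KRT8 and KRT18 are found in other epithelia too. Levels of genes for proteins that hepatocytes secrete differed widely. ALB had 8.82 and 7.04 CPM, APOB 15.6 and 11.06 CPM, APOA1 4.37 and 4.63 CPM and TTR 3.62 and 2.49 CPM. SERPINA1 and FGB, also genes of secreted proteins, were among the most abundant of the 13 markers. The intervals of 9 of the 13 lay below 0 and of 2 above 0, beside 31.5% and 22.8% of all genes tested, of which 57.0% were lower. With all ratios rescaled to a median of 0, 6 lay below 0 and 2 above 0, beside 26.0% and 27.7% of all genes tested. The intervals of ALB, KRT8 and TTR then included 0. FGB (950.03 and 622.73 CPM) and TF (6.61 and 4.02 CPM) were at least 1.5-fold lower, as were 4.04% of all genes tested. After either rescaling neither gene was past this fold, and after the length adjustment TF was not.

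The listed markers of the cells that make most matrix in fibrotic liver were low. Of 15 stellate cell and fibroblast markers 4 were listed, with a sum of 7.74 and 8.56 CPM. They were COL3A1 (4.53 and 3.42 CPM), TAGLN (2.29 and 4.14 CPM, log2 ratio 0.64, interval 0.37 to 1.36), COL1A1 (0.67 and 0.76 CPM) and PDGFRA (0.25 and 0.24 CPM). Of 13 Kupffer cell and macrophage markers 5 were listed, with a sum of 53.24 and 49.71 CPM, nearly all from LYZ (32.07 and 29.2 CPM) and CD68 (21.17 and 20.47 CPM). CD68 shares 267 nt with the overlapping gene AC016876.2, listed at 322.29 and 425.89 CPM, so its level is uncertain. PTPRC and CSF1R, also on this marker list, had 0 tags in both libraries, and AIF1 had 0 and 1 tag. Of 10 endothelial markers 0 were listed. Some genes with 0 tags in both libraries are listed, so the level of a marker that is not listed is not known. Apart from KRT18, COL3A1 and LYZ, the markers named were chosen after their values were seen. The matrix genes above were thus measured in libraries with AFP, SERPINA1, FGB and keratins at high levels, and ALB, APOB, APOA1 and TTR at low levels. Of the listed markers of other liver cells, LYZ and CD68 had the highest levels, 32.07 and 21.17 CPM in non-treated cells.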

How the data were processed

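CAGE libraries of PLC/PRF/5 cells were made from total RNA, 1 per condition, and sequenced and mapped by a service provider. The authors deposited CPM per gene, rounded to 2 decimals. Earlier steps were discarding ribosomal tags and tags with undetermined bases, mapping, and clustering of the 5′ ends. The submitters' processing notes name hg19, BWA and HISAT2, while the published methods name a mouse genome. The deposited identifiers are those of human genes. The assignment of tags to genes is not given in the sources used here.

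Whole tags and library totals were inferred from the CPM by a search over whole totals, with which 100% of values above 0 were multiples of the CPM of 1 tag within rounding to 2 decimals (0.12 and 0.124 tags). Within a stricter 0.1 tags, 87.6% (non-treated) and 94.1% (M2BPGi-treated) of values of up to 20 tags were whole. They served for intervals only, and edgeR was not used. For the log2 ratio, 1 CPM was added to each value, and the 13724 genes with a mean of 1 CPM or more were used, with a threshold of 1.5-fold. No test was run. The members and lists were chosen with earlier results of these data known. Genes named are the 9 members, the 3 highest and 3 lowest log2 ratios with a mean of at least 10 CPM in each of 5 lists (ligands and latency, receptors, SMADs and regulators, immediate response, matrix), and the most abundant gene of each of 4 cell type marker lists (hepatocyte, stellate, Kupffer, endothelial). Other names are stated as such.

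Transcript lengths are medians per gene from GENCODE v29 (GRCh38), found for 13271 of the genes tested (96.7%). Copies were searched with BLAST+ 2.17.0, using the first 500 nt of the transcripts of 164 genes and matches of at least 100 nt with at least 95% identity, and 0 of the 9 members had one outside its own locus. ACVR2A, CTGF and VEGFA share sequence with an overlapping gene, so part of their tags is uncertain. Start windows came from RefSeq (GRCh38.p14). Alternatives were other pseudocounts, filters, fold thresholds, rescaling and a length adjustment. Python 3.11.15, numpy 2.4.6, pandas 2.3.3, scipy 1.17.1 and matplotlib 3.10.9 were used, and the steps were tested on simulated data.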

Additional observations from a re-analysis of the deposited data

How the results depend on the processing

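Counts past a fold moved with the settings. With a pseudocount of 0.1 CPM, 1 of the 9 genes (TGFBR1) was at least 1.5-fold lower in place of 0, and 336 of all genes were higher and 856 lower in place of 219 and 555. With a pseudocount of 5 CPM the numbers over all genes were 91 and 164, and with a mean of at least 10 CPM, where fewer genes are tested, 135 and 223. At 2-fold they were 33 and 59. At 1.2-fold they were 1787 and 3323, with 2 of the 9 genes lower (TGFBR1 and FN1). The interval of TGFB1 included 0 after either rescaling and after the length adjustment, which left 4 genes with an interval below 0, and with the length adjustment 1 gene (SMAD2) had an interval above 0 in place of 0 genes. These interval counts, and those of the lists, were added after seeing the data. The median log2 ratio of the 8 genes tested went from -0.21 to -0.14 with the length adjustment. The medians of 2 lists near 0 changed sign: that of SMADs and regulators went from -0.08 to 0.02 with the length adjustment, and that of immediate response genes from -0.03 to 0.02 after either rescaling and to 0.01 with the length adjustment. The medians of the ligands, receptors and matrix lists stayed below 0 under every alternative run. Of 200 values of single named genes under 5 alternatives, 17 moved beyond the counting error and 3 changed sign: BAMBI was at 0.03 after either rescaling and SMAD4 at 0.07 after the length adjustment. Of the 200, 40 belong to the 8 genes tested, and 9 of these 40 moved. FN1 and TGFBR2 moved with either rescaling and with the length adjustment, and TGFBR1, SMAD2 and SMAD4 with the length adjustment. The cause was not tested. Rescaling to a median of 0, or by a mean trimmed by 30% at each end, which was chosen after seeing the data, shifted all log2 ratios by 0.05. TMM normalization from edgeR was not run, since the values are CPM. No paired analysis was possible because there is 1 non-treated and 1 M2BPGi-treated library.

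Depth limits SMAD7, with 1 tag in each library, and TGFBI, whose interval spans 0. Variation between cultures was not measured for any gene.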

Other observations

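The families described here were grouped, and their genes chosen, after the values were seen. The 6 genes of the matrix list that encode lysyl or prolyl 4-hydroxylases of collagen or their shared chain (PLOD1, PLOD2, PLOD3, P4HA1, P4HA2 and P4HB) were lower in the M2BPGi-treated library, each with an interval below 0, beside 31.5% of all genes tested. Their log2 ratios ran from -0.66 to -0.32, and their summed level was 1697.08 CPM without and 1266.06 CPM with M2BPGi. P4HB, which also acts as a disulfide isomerase, held most of it with 1356.27 and 1018.18 CPM. Outside the list, the prolyl 3-hydroxylase genes LEPRE1 and LEPREL1 had log2 ratios of -0.51 and -0.13.

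The 6 laminin chain genes of the list were lower as well, from -0.67 (LAMA3) to -0.01 (LAMB3), and the intervals of 5 lay below 0 (31.5% of all genes tested). All 6 are in the group with the longest transcripts, whose median log2 ratio was -0.13, so LAMB3 lay above that median. After the length adjustment the intervals of the other 5 lay below 0 (25.5% of all genes with a length). LAMB1, LAMB2 and LAMC1, chains of the basement membrane laminins of many epithelia, had 208.94, 206.53 and 148.67 CPM in non-treated and 162.05, 160.56 and 121.18 CPM in M2BPGi-treated cells. Of all 10 collagen chain genes tested, in the list or not, 9 were lower (57.0% of all genes tested) and the intervals of 6 lay below 0 (31.5%), with log2 ratios from -0.76 (COL5A3, 10.65 and 5.87 CPM) to 0.04 (COL6A1, 5.62 and 5.79 CPM). Of those 6 intervals, that of COL5A2 included 0 after either rescaling and after the length adjustment. COL18A1 was the most abundant of the 10 with 102.91 and 86.8 CPM. ITGB1 and ITGA5, which together form the main fibronectin receptor, had 1363.34 and 213.56 CPM in non-treated and 1114.23 and 186.74 CPM in M2BPGi-treated cells. Both had intervals below 0, as did 31.5% of all genes tested.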
